A study of Mus musculus with 21 samples.

Results

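Hyaluronan is a long, unsulfated sugar chain of the extracellular matrix that is abundant around mammary ducts and in the stroma of mammary tumors. It is extruded by synthases in the plasma membrane (*Has1*, *Has2* and *Has3*), cut by hyaluronidases (*Hyal1* and *Hyal2*) and bound at the cell surface by the receptor *Cd44*. The inter-alpha-inhibitor heavy chains (Itih genes) are secreted proteins, made for the most part in the liver, of which some are transferred onto hyaluronan by *Tnfaip6*, also called TSG-6. The transfer makes the hyaluronan coat of a cell stiffer and more adhesive.

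The 10 genes described here are the heavy chains *Itih2*, *Itih4* and *Itih5*, the synthases *Has1*, *Has2* and *Has3*, the hyaluronidases *Hyal1* and *Hyal2*, the receptor *Cd44* and the transferase *Tnfaip6*. They were taken by symbol from the 49652 genes of the count files, of which 38730 had a count in any tumor. *Itih2* was chosen because its level differed between the RhoC and control tumors of these same data. Its cohort difference is therefore given as a description, without a test, and the other 9 genes were added for their role in the same matrix. Of the 10 genes, 9 passed the filter on low counts and *Has1* did not.

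RNA was measured in 21 mammary tumors of female virgin mice, 9 of the control cohort (N) and 12 of the RhoC cohort (R). All carried FloxNeoNeuNT, an activated Neu cDNA behind a loxP-flanked stop at the endogenous *Erbb2* locus, and MMTV-CreNLST, a mammary-specific Cre line that, by the study's account, appears to be active in fewer mammary epithelial cells, or more weakly, than comparable lines. The RhoC cohort had the genotype R26(RhoC/+);FloxNeoNeuNT;MMTV-CreNLST, in which Cre also switches on wildtype RhoC with eGFP from Rosa26. Among the controls, 7 had the genotype Gata4(loxP/+);FloxNeoNeuNT;MMTV-CreNLST, with a Gata4 loxP allele that the RhoC tumors lacked, and 2 had FloxNeoNeuNT;MMTV-CreNLST alone. Tumors were collected at the humane endpoint of each mouse, and the labels give no age. The controls came from 9 mice and the RhoC tumors from 8, with R-13, R-14, R-15 and R-16 from mouse P497 and R-6 and R-7 from mouse N9255, so tumors are not all independent animals. The labels give no mouse for R-18, which is counted here as a mouse of its own. The mouse of R-21 is not settled, since its label names a mouse that the study lists under another tumor. Histology came from the study and not from the labels, was not named for N-17, R-18 and R-21, and is used without tests. It named R-6, R-13 and R-14 as squamous cell carcinomas, R-7, R-10, R-12, R-16 and N-4 as complex adenocarcinomas, R-1, N-7 and N-9 as solid nodular carcinomas, N-3, N-6, N-8 and N-15 as poorly differentiated adenocarcinomas and N-1 as a spindle cell tumor, with more than 1 type listed for R-2 and R-15. The entry of N-8 also lists further tumors, a solid nodular carcinoma among them.

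Each tumor had 47309780 to 100741339 counted reads, and levels are given as CPM, counts scaled to a common library size, after TMM scaling, which evens out library composition. Adjusted p values are Benjamini-Hochberg values over all 19315 tested genes, called under 0.05. *Rhoc*, the gene of the engineered allele, ran from 25.98 to 172 CPM in controls (median 50.7) and from 22.8 to 148 in RhoC tumors (median 88.2). Its log2 fold change was 0.19 with a standard error (SE) of 0.34 and an adjusted p of 0.774 by the edgeR quasi-likelihood test, so its counts did not separate the cohorts and the cohort names below are those of the labels. R-2 had the lowest *Rhoc* of all tumors. Luminal epithelial markers summed to 1639 to 5934 CPM in controls and 1105 to 3506 in RhoC tumors, present in every tumor. The 4 skeletal muscle and 4 adipocyte markers were highest in N-17, at 3834 and 238 CPM. The basal epithelial and squamous keratinocyte sums were highest in R-6, at 16750 and 4712 CPM.

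*Itih2* (ENSMUSG00000037254.18) lies on the minus strand of chr2:10094593-10131396 of GRCm38, and no other annotated gene overlaps it. *Itih5* (ENSMUSG00000025780.7) starts 22.2 kb away on the plus strand, at chr2:10153571-10256529, so the pair point away from each other. The 250 bases before the RefSeq start of each are shown because these neighbours had different patterns across the tumors. Both are from GRCm38.p6 and are written 5′ to 3′ on the strand of their gene, chr2:10130684-10130933 (minus) for *Itih2* and chr2:10153293-10153542 (plus) for *Itih5*. Capitals mark matches, on either strand, to TATAAA (the core of a TATA box), AGATAA (letters that GATA factors recognise), TGANTCA (those of AP-1) or TTCNNNGAA (those of STAT factors).
Itih2: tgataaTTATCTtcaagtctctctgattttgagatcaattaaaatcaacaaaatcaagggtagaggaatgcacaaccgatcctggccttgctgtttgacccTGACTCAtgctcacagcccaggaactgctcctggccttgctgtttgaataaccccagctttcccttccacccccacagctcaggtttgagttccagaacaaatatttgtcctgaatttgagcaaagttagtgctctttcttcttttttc
Itih5: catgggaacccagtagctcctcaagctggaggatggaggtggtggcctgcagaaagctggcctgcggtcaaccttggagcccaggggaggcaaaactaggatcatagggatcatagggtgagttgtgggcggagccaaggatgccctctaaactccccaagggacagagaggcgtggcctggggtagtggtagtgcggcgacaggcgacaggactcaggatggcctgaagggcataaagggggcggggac
The *Itih2* window held 1 AGATAA, read on the minus strand of the printed sequence 244 bases before the start, and 1 TGANTCA, the same on both strands, 149 bases before it. The *Itih5* window held none of the 4. Over all 32851 RefSeq windows of the same length, 9.99% held AGATAA, 6.75% held TGANTCA, 12.4% held TATAAA and 7.02% held TTCNNNGAA. The *Itih2* window had 43.2% G and C with 1 CG dinucleotide, and the *Itih5* window 61.2% with 7, against medians of 52.4% and 6. These are letter matches only, and the counts do not show which start the tumors used.

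*Itih2* was low in every control tumor and above all of them in 10 of the 12 RhoC tumors. In controls it ran from 0.0363 CPM in N-1 through a median of 0.833 to 2.50 in N-17, from 2 to 172 reads. In RhoC tumors it ran from 0.812 CPM in R-10 through a median of 17.4 to 212 in R-21, from 47 to 14332 reads. Of all tested genes, 0.28% (54) had at least 10 RhoC tumors above every control. R-10 at 0.812 CPM and R-12 at 2.07 were the RhoC tumors within the control range, and both were complex adenocarcinomas. The next RhoC tumor, R-2, had 8.51 CPM, 3.40 times the highest control.

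*Itih2* differed widely among the RhoC tumors that carried it. R-7 had 8.84 CPM, R-18 had 10.1, R-13 had 15.8 and R-6 had 18.9. R-15 had 25.2, R-1 had 33.0, R-16 had 35.1 and R-14 had 46.0. R-21 stood apart at 4.60 times the next highest and held 50.9% of the *Itih2* CPM summed over the cohort. The RhoC mean was 34.7 CPM ± 57.5 (SD, n = 12) against 1.07 ± 0.936 (SD, n = 9) in controls. The fitted log2 fold change was 5.02 (SE 0.93), and 4.12 (SE 0.75) without R-21, where the RhoC mean was 18.6 CPM ± 14.6 (SD, n = 11). These SEs do not allow for the choice of *Itih2* by this contrast or for tumors that share a mouse, so no test is read from them.

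**Figure D1:**
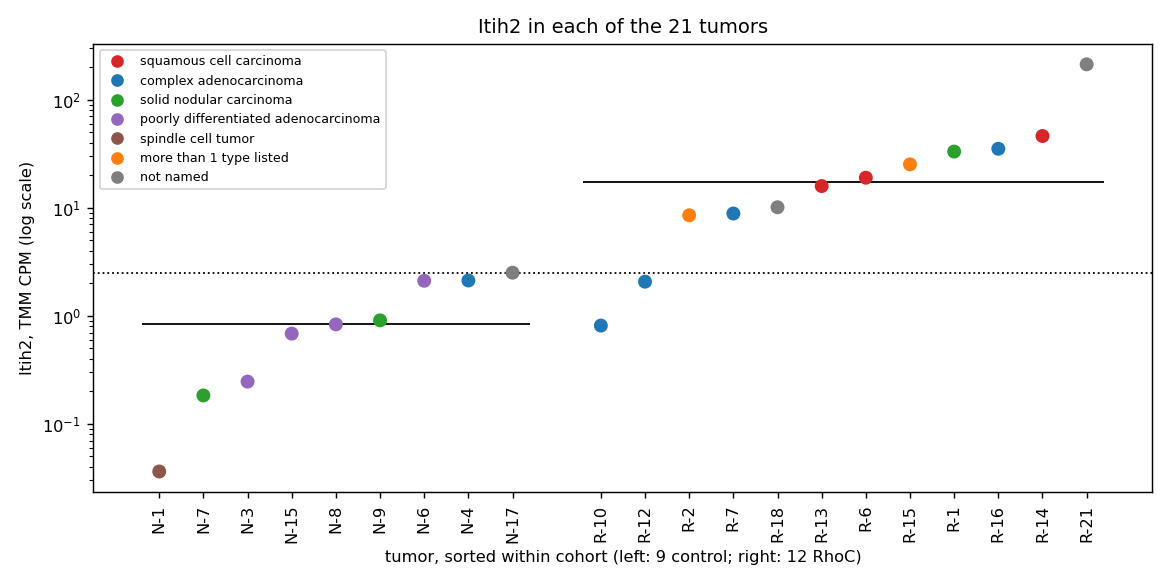
*Itih2* in each tumor as TMM CPM on a log axis, sorted within the control (left) and RhoC (right) cohorts and coloured by the histology the study named. Solid lines are cohort medians (0.833 and 17.4 CPM) and the dotted line is the highest control at 2.50 CPM; R-10 and R-12 lie under it and R-21 lies far above the rest.

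The tumors that carried *Itih2* were of several histologies and several mice. The 3 squamous cell carcinomas had 15.8 to 46.0 CPM, the 4 complex adenocarcinomas of the RhoC cohort 0.812 to 35.1, and its 1 solid nodular carcinoma 33.0. No control was a squamous cell carcinoma. The control complex adenocarcinoma had 2.12 CPM, above R-10 and R-12 of that type, and the control solid nodular carcinomas had 0.183 and 0.907. In mouse P497, 4 tumors of several histologies lay between 15.8 and 46.0 CPM, a log2 range of 1.54. The range over the whole cohort, 7.97, is not a like measure, since more tumors widen a range and its ends are R-10 and R-21. In mouse N9255, the squamous cell carcinoma had 18.9 CPM and the complex adenocarcinoma 8.84. Averaged within mice, with R-18 counted as a mouse of its own, 6 of 8 RhoC mice were above every control. The share of all tested genes with as many was not computed for mouse means, and *Itih2* was chosen by this contrast. Scaling by library size, or the FPKM of the authors, also put 10 RhoC tumors above every control.

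The reads of the engineered genes were compared with *Itih2* over the 12 RhoC tumors. The Pearson correlation of its log2 CPM was 0.17 with *Rhoc* and 0.32 with *Erbb2*, and Spearman's rho was 0.36 and 0.41; the Neu cDNA is rat-derived, and how its reads were assigned was not tested. These and the correlations below describe 12 tumors that in part share mice, and carry no test. *Erbb2* ran from 57.9 to 2725 CPM in controls and from 256 to 1851 in RhoC tumors.

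Since *Itih2* is best known as a liver gene, the hepatocyte markers are given beside it. Of the 6 markers, 3 passed the filter and none was called by edgeR, though *Fgb* had an unadjusted p under 0.05, as 20.5% of all tested genes did, and was called by DESeq2, as 6.24% were. Their sum ran from 0.0907 to 9.28 CPM in controls and from 1.55 to 127 in RhoC tumors. *Alb*, *Apoa1* and *Ttr*, which define the cell type, were at 0 reads in over 10 tumors each, and *Alb* was highest in a control, N-17, at 2.30 CPM. The sum of 127 CPM in R-14 was almost all *Fgb*, the fibrinogen beta chain. *Fgb* had 127 CPM in R-14, 27.3 in R-13, 11.5 in R-6 and 10.2 in R-15. It had 0 reads in R-21, the tumor with the most *Itih2*, where 3 reads would be 0.0443 CPM. *Alb* and *Ttr* also had 0 reads in R-21 and *Apoa1* had 0.0296 CPM. *Ahsg* had 3.22 CPM there, and *Serpina1a* had 0.695, its highest level of the 21 tumors, so the hepatocyte sum of R-21 was 3.95 CPM.

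The genes on either side of *Itih2* had at most 6 RhoC tumors above every control. At least 3 RhoC tumors lay above every control for 20.6% of all tested genes, and the share at 6 or more was not computed. Within 250 kb lie 9 other genes of the deposited table, and none was called by edgeR (0.223% of all tested genes were, 43 of 19315, 0.0932% higher and 0.129% lower in RhoC). Only *Kin* had an unadjusted p under 0.05 by edgeR (20.5% of all tested genes did), and DESeq2 called 1 of the 9, *Kin*, with an adjusted p of 0.0177 (6.24% of all tested genes were called). *Kin*, a DNA-binding protein gene 1.79 kb away, had 5.58 to 12.4 CPM in controls and 4.56 to 8.89 in RhoC tumors. Its log2 fold change was -0.54 (edgeR adjusted p = 0.100, SE 0.16). *Atp5c1*, the gamma subunit of mitochondrial ATP synthase 14.1 kb away, had a log2 fold change of -0.16, and *Taf3*, a TFIID subunit 46.0 kb away, had -0.13. Both varied little between tumors, at 93.5 to 235 CPM and 14.7 to 28.0 CPM. *Gata3*, the luminal transcription factor 205 kb away, had a log2 fold change of 0.39, and the short genes beside it, *4930412O13Rik* and *9230102O04Rik*, had -0.04 and 0.98. Beyond *Itih5*, the noncoding *Gm13261* had -1.16 and *Sfmbt2*, a Polycomb group gene 239 kb away, had -0.38. The adjusted p of these 7 genes ran from 0.251 to 0.981.

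R-21 was at opposite extremes for genes of this stretch. It ranked first of the 21 tumors for *Itih2* and for *Taf3*, at 28.0 CPM. It was last for *Sfmbt2*, at 0.296 CPM against a RhoC median of 22.0. Its *Itih5* level, 50.3 CPM, ranked sixth.

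**Figure D2:**
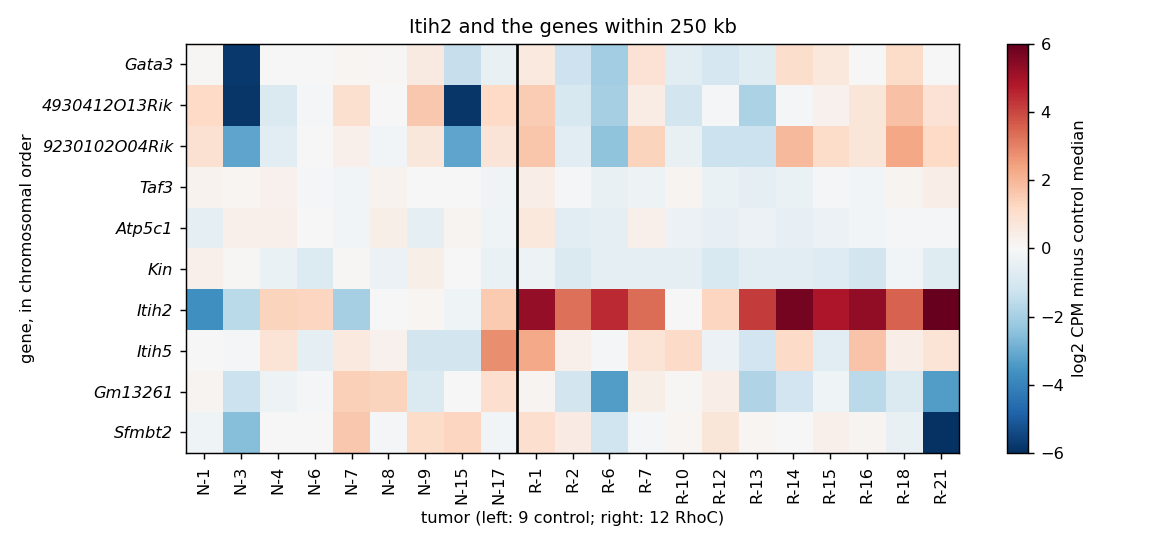
Log2 CPM of *Itih2* and the 9 genes of the deposited table within 250 kb, minus the control median of each gene, with genes in chromosomal order and tumors split into 9 control (left) and 12 RhoC (right). The colour scale ends at 6 in both directions; the *Itih2* row is deep red in 10 RhoC tumors, all but R-10 and R-12, and no neighbouring row is.

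By a rule of likeness, the 10 genes with the highest Pearson correlation with *Itih2* over the 12 RhoC tumors were picked from 15447 tested genes with a mean log2 CPM over 0. They were *Rnf215* (0.94), *Dalrd3* (0.92), *Zfp688* (0.92), *Mfap1b* (0.91), *Gnptg* (0.90), *Tmem129* (0.89), *Wdr24* (0.88), *Fam98c* (0.87), *Ndufa7* (0.87) and *Gm7292* (0.86). Their levels moved over a far narrower range than *Itih2*. *Rnf215*, which encodes a RING finger protein, ran from 6.20 CPM in R-10 to 19.7 in R-21, and *Dalrd3* from 11.2 in R-10 to 46.6 in R-21. Without R-10 and R-21, the tumors farthest from the median *Itih2*, the correlation was 0.82 for *Rnf215* and 0.75 for *Dalrd3*. Their cohort differences were small, with log2 fold changes of 0.69 (edgeR adjusted p = 0.103) and 0.46 (adjusted p = 0.259). No hyaluronan gene was among the 10.

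The other tested members ran from 0.19 down to -0.82 in likeness to *Itih2*. *Itih5* had 0.19, *Hyal1* 0.04, *Has3* -0.00 and *Cd44* -0.16. *Hyal2* had -0.35, *Has2* -0.39 and *Itih4* -0.64. Without R-10 and R-21, *Itih5* had 0.45, *Has2* -0.17, *Hyal2* -0.0099 and *Itih4* -0.62. *Tnfaip6*, the enzyme that moves heavy chains onto hyaluronan, had -0.82, and -0.30 without R-10 and R-21. R-10 had the most *Tnfaip6* and the least *Itih2* of the RhoC tumors, and R-21 had the least *Tnfaip6* and the most *Itih2*. R-10 also had the highest RhoC sums of skeletal muscle (563 CPM), adipocyte (25.9), endothelial (440.4) and macrophage (586) markers and the lowest luminal sum of all tumors (1105), and their part in these values was not tested.

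None of the other 8 tested members was called between the cohorts by edgeR, against 0.223% of all tested genes, and 1 of the 8, *Itih4*, had an unadjusted p under 0.05 (20.5% of all tested genes). DESeq2, which called 6.24% of all tested genes, called *Itih4* and *Has3*. The 9 tested members had a median log2 fold change of 0.43 against -0.01 for all tested genes, with 7 above 0 and 2 below. The rule used this contrast for *Itih2*, and nothing is read from these counts.

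**Figure D3:**
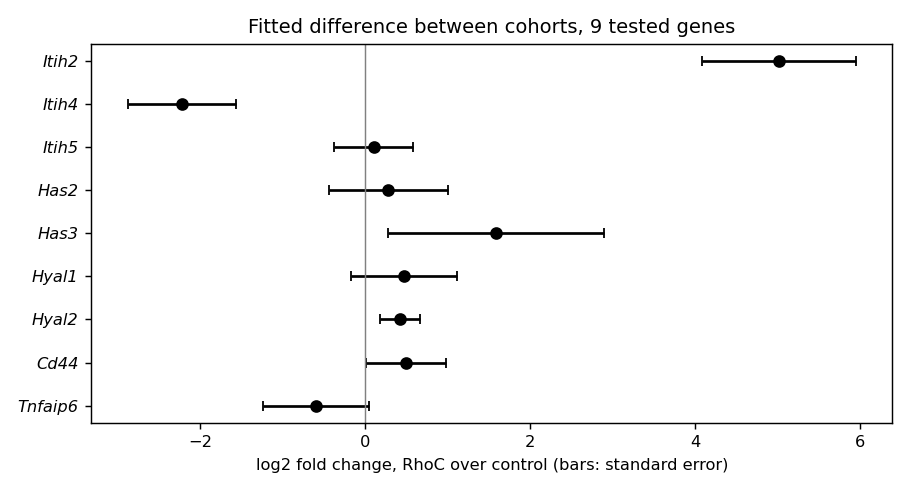
Fitted log2 fold changes of RhoC over control tumors for the 9 tested genes, with bars of 1 standard error. *Itih2* at 5.02 was chosen by this contrast; *Itih4* lies at -2.22, and the bars of *Itih5*, *Has2*, *Hyal1* and *Tnfaip6* cross 0.

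*Itih4* (ENSMUSG00000021922.17, chr14:30886476-30902353, plus strand) encodes a blood protein of the heavy chain family that is not joined to bikunin, and most RhoC tumors had few of its reads. In controls it ran from 0.101 CPM in N-3 through a median of 0.267 to 2.59 in N-17, from 7 to 178 reads. In RhoC tumors it ran from 0 in R-13, where 3 reads would be 0.0627 CPM, through a median of 0.0669 to 0.322 in R-12, from 0 to 19 reads. No RhoC tumor exceeded all controls and 7 lay below every control, as at least 7 did for 1.80% of tested genes. By the labels these 7 tumors came from 3 mice, 4 of them from P497 and 2 from N9255, with R-21 the other. The fitted log2 difference was -2.22 (SE 0.66) with an adjusted p of 0.0932 by edgeR, and 0.0197 by DESeq2. With counts summed per mouse it was -1.84 with an adjusted p of 0.311 by edgeR, and over the alternatives the adjusted p ran from 0.0197 to 0.702. N-17 held the highest value by far, and without it the log2 fold change was -1.45 (adjusted p = 0.178). All 3 squamous cell carcinomas were at or under 0.04945 CPM, but such levels were not particular to them. The complex adenocarcinoma R-16 had 0.0437 CPM and R-21, of no named histology, 0.0296. The 4 tumors of P497, of several histologies, had 0 to 0.0499 CPM, and all these values rest on few reads.

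*Itih5* encodes a heavy chain made in many tissues, whose loss has been described in breast cancer, and it did not separate the cohorts. Controls ran from 13.1 CPM in N-9 through a median of 28.3 to 198 in N-17. RhoC tumors ran from 12.8 CPM in R-13 through a median of 43.7 to 137 in R-1. The log2 fold change was 0.11 (edgeR adjusted p = 0.918, SE 0.48) and 0.84 (adjusted p = 0.233) without N-17. N-17 also had the highest adipocyte, skeletal muscle, endothelial and macrophage sums of the 21 tumors and the highest fibroblast sum of the controls, and their part in its *Itih5* was not tested.

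Per length, *Itih5* was the highest of the 3 heavy chain genes *Itih2*, *Itih4* and *Itih5* in all 9 controls, and *Itih2* took that place in 5 RhoC tumors. On the authors' FPKM (fragments scaled by gene length and depth, which allow genes of unlike length to be compared), the median level of *Itih5* was 3.60 in controls and 5.48 in RhoC tumors. The median level of *Itih2* was 0.251 FPKM in controls and 5.33 in RhoC tumors, close to that of *Itih5*. The ratio of *Itih2* to *Itih5* FPKM was 0.270 or less in every control. It was 1.72 in R-6, 1.75 in R-14, 2.96 in R-13, 3.38 in R-15 and 10.04 in R-21. R-10 and R-12 had ratios of 0.0312 and 0.223, inside the control range. *Itih4* never led, with at most 0.716 FPKM. Of the rest of the family, *Itih1*, *Itih3* and *Ambp*, which encodes bikunin, did not pass the filter and reached at most 0.0667, 0.294 and 1.04 CPM in any tumor. The pseudogene *Itih5l-ps* reached 11.7 FPKM in R-18, where *Itih5* had 4.74 and *Itih2* 3.03 FPKM.

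*Has2* (ENSMUSG00000022367.7, chr15:56665627-56694539, minus strand), the main synthase of mesenchyme, varied 65.5-fold over the tumors without separating the cohorts. Controls ran from 3.45 CPM in N-6 through a median of 11.9 to 111 in N-3. RhoC tumors ran from 1.70 CPM in R-21 through a median of 33.3 to 97.3 in R-12. The fitted log2 difference was 0.28 (edgeR adjusted p = 0.848, SE 0.72) and turned to -0.14 without the 3 squamous cell carcinomas, which had 49.2 to 85.5 CPM. Its antisense gene *Has2os* overlaps its span by 4596 bases, and the strand setting of the counting was not stated. *Has2os* had at most 2.27 CPM in any tumor.

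*Has3* (ENSMUSG00000031910.14, chr8:106870242-106884566, plus strand), the synthase of keratinizing epithelium, was near absent in some tumors and abundant in others. Controls ran from 0.0630 CPM in N-4 through a median of 1.14 to 73.7 in N-3. RhoC tumors ran from 0.504 CPM in R-7 through a median of 4.70 to 223 in R-6. The squamous cell carcinomas had 15.5, 26.2 and 223 CPM, but R-10 with 69.5 and R-21 with 48.8 were also high, and their squamous keratinocyte sums were 1.57 and 2.76 CPM against 820 to 4712 in the squamous cell carcinomas. The log2 fold change was 1.59 (edgeR adjusted p = 0.503, SE 1.31). DESeq2 gave 3.28 with an adjusted p of 0.0264. Without its replacement of outlying counts it gave 1.61 and no adjusted p. The adjusted p over the alternatives ran from 0.0264 to 0.973, and without single tumors the log2 fold change ran from 0.52 without R-6 to 3.40 without N-3 (edgeR adjusted p = 0.846 and 0.211). *Chtf8* overlaps one end of *Has3* on the opposite strand and had 7.16 to 30.1 CPM over the tumors, and since the strand setting was not stated, it is not known whether reads of the shared stretch were discarded or assigned by strand.

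*Has1* (ENSMUSG00000003665.7, chr17:17843323-17855188, minus strand) did not pass the filter and was not tested. It had 0 to 71 reads in controls, at most 1.18 CPM in N-7, and 0 to 89 in RhoC tumors, at most 1.54 CPM in R-10. It was at 0 reads in N-1, N-8, N-9 and R-21, where 3 reads would be 0.0347 to 0.0544 CPM.

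Which synthase led changed between tumors. By FPKM, *Has2* was the highest in all 9 controls and in 8 RhoC tumors, and *Has3* was the highest in R-6, R-10, R-18 and R-21. *Has3* made up 95.02% of the summed synthase FPKM in R-21, 74.9% in R-6, 64.4% in R-10 and 47.5% in R-18. The summed FPKM ran from 0.878 in N-6 to 37.6 in N-3 in controls and from 0.819 in R-1 to 47.2 in R-6 in RhoC tumors, with medians of 2.91 and 10.4. R-1, with 33.0 CPM of *Itih2*, thus had the lowest synthase sum, and R-14, with 46.0 CPM of *Itih2*, had 24.2 FPKM of synthases.

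**Figure D4:**
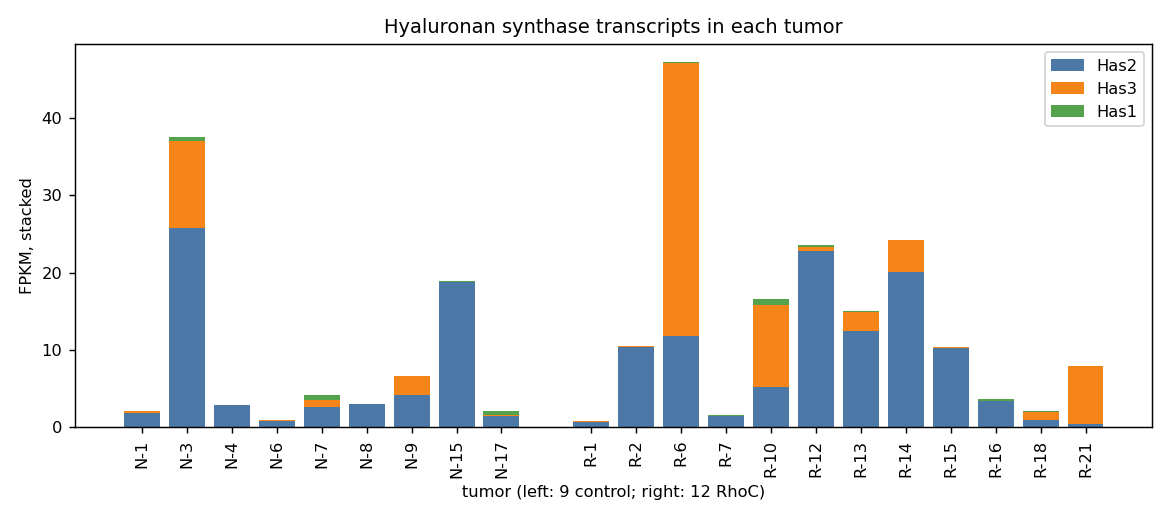
Stacked FPKM of *Has2*, *Has3* and *Has1* in each tumor, 9 control (left) and 12 RhoC (right), on the authors' per-length scale. *Has2* is the larger part in every control, while *Has3* is the larger part in R-6, R-10 and R-21 and by a narrow margin in R-18, and R-6 has the highest sum at 47.2 FPKM.

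*Hyal1* (ENSMUSG00000010051.15, chr9:107576927-107581710, plus strand), the lysosomal hyaluronidase, was, within the RhoC cohort, highest in the 3 squamous cell carcinomas. They had 17.9, 32.6 and 72.0 CPM. The other 9 RhoC tumors had 1.34 to 12.4 CPM, and controls ran from 2.50 in N-4 through a median of 5.57 to 19.7 in N-17, with 19.3 in the spindle cell tumor N-1. The cohorts overlapped, with a log2 fold change of 0.47 (edgeR adjusted p = 0.697, SE 0.64). Without the squamous cell carcinomas it was -1.10 (adjusted p = 0.261), and without R-6 alone it was -0.24. *Hyal3* and *Naa80* overlap *Hyal1* on the same strand, and reads in shared stretches were discarded. *Hyal3* had 0.539 to 2.57 CPM over all tumors.

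*Hyal2* (ENSMUSG00000010047.12, chr9:107567945-107572779, plus strand), a hyaluronidase anchored at the cell surface, was the steadiest of the 10 genes. Controls ran from 10.2 CPM in N-4 through a median of 32.8 to 54.9 in N-15. RhoC tumors ran from 27.0 CPM in R-18 through a median of 38.8 to 75.6 in R-10. Its SD over the 21 tumors was 0.61 on the log2 scale, against 3.35 for *Has3* and 2.96 for *Itih2*. The fitted log2 difference was 0.43 (edgeR adjusted p = 0.316, SE 0.24).

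*Cd44* (ENSMUSG00000005087.17, chr2:102811141-102901665, minus strand), the main hyaluronan receptor, was the most abundant of the 10 genes by median level in both cohorts and split the RhoC cohort. The squamous cell carcinomas had 1828, 2251 and 3156 CPM, above every control, and at least 3 RhoC tumors lay above every control for 20.6% of tested genes. Controls ran from 411 CPM in N-7 through a median of 629 to 1530 in N-8. RhoC tumors ran from 152 CPM in R-21 through a median of 449 to 3156 in R-13, and 4 lay below every control, as at least 4 did for 11.5% of tested genes. The log2 fold change was 0.49 (edgeR adjusted p = 0.579, SE 0.49), and -0.46 without the squamous cell carcinomas (adjusted p = 0.565).

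Basal epithelial markers, *Krt5* and *Krt14* among them, were high in the 4 RhoC tumors with the most *Cd44* but not in the control with the most. Their sum was 5281 to 16750 CPM in the squamous cell carcinomas. R-12, a complex adenocarcinoma with the next highest RhoC level of *Cd44*, 1457 CPM, had a basal sum of 4198 CPM. The other 8 RhoC tumors had basal sums of 47.4 to 659 CPM. Among controls the highest basal sum, 2562 CPM in N-1, went with a *Cd44* level of 629 CPM, the control median, while N-8, with the highest control level of *Cd44*, 1530 CPM, had a basal sum of 126 CPM. The part of these cells in *Cd44*, *Has3* and *Hyal1* was not tested, and in bulk RNA fewer cells of a type and less RNA per cell cannot be told apart.

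*Tnfaip6* (ENSMUSG00000053475.5, chr2:52038009-52056686, plus strand), which is known to be induced in inflammation, was low in both cohorts. Controls ran from 0.0907 CPM in N-1 through a median of 1.58 to 4.79 in N-3. RhoC tumors ran from 0.133 CPM in R-21 through a median of 0.759 to 6.29 in R-10, and 10 of the 12 were at or under the control median. The fitted log2 difference was -0.59 (edgeR adjusted p = 0.616, SE 0.64) and -1.24 (adjusted p = 0.200) without R-10. R-21, with 212 CPM of *Itih2*, had 9 reads of *Tnfaip6*.

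**Figure D5:**
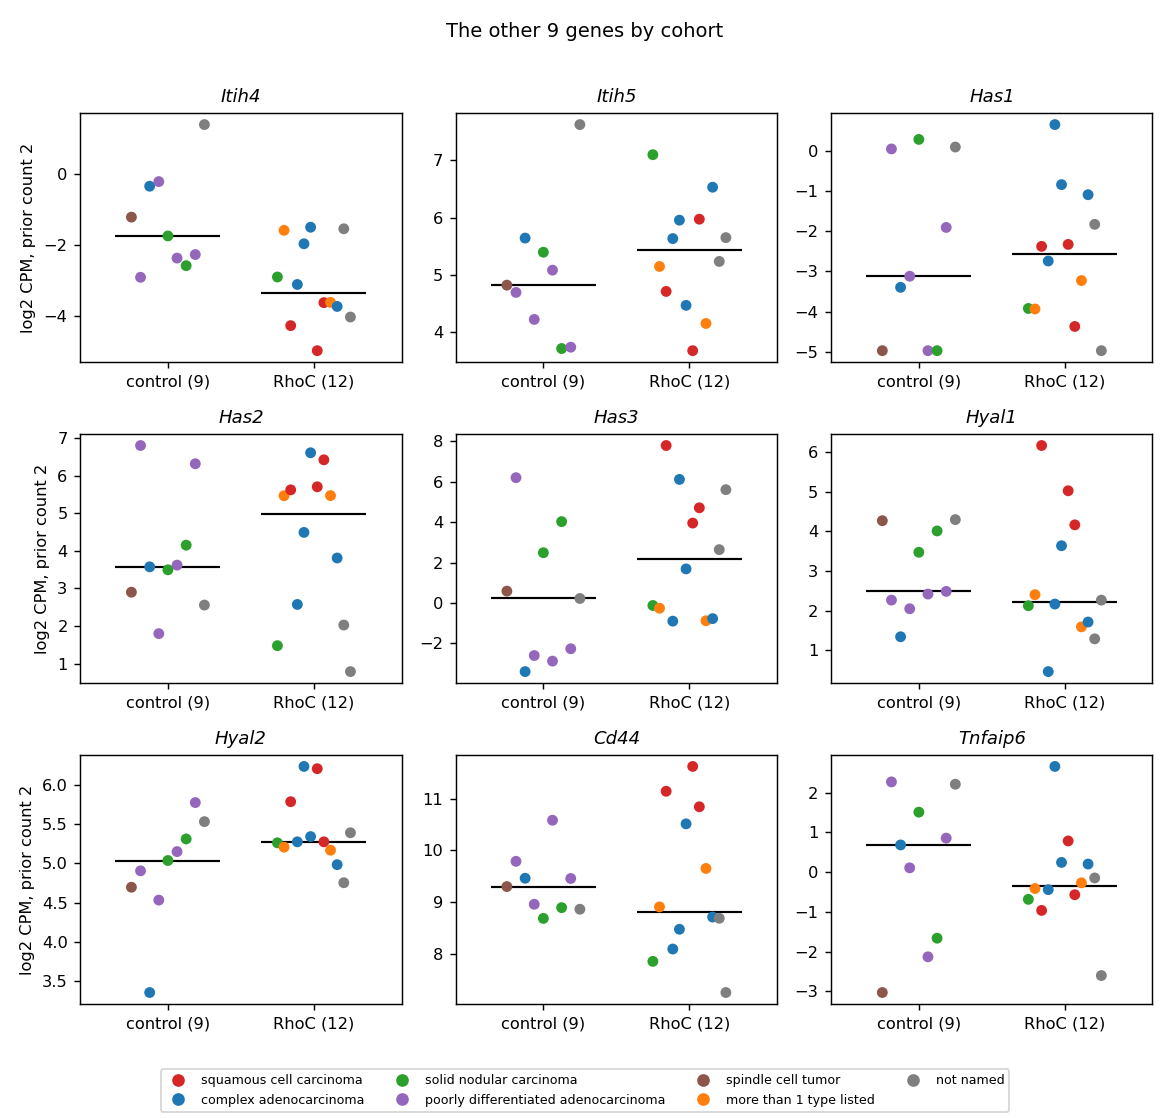
Log2 CPM (prior count of 2) of the other 9 genes in 9 control and 12 RhoC tumors, with points coloured by the histology the study named and lines at the cohort medians. The squamous cell carcinomas are the 3 highest points for *Cd44* and, within the RhoC cohort, for *Hyal1*, and the cohorts overlap for all 9 genes.

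Per length, the order of the 10 genes by median level differed between the cohorts. In controls it was *Cd44* (111.9 FPKM), *Hyal2* (9.89), *Itih5* (3.60), *Has2* (2.80) and *Hyal1* (1.48), then *Tnfaip6* (0.92), *Itih2* (0.251), *Has3* (0.174), *Itih4* (0.0750) and *Has1* (0.0397). In RhoC tumors it was *Cd44* (78.9 FPKM), *Hyal2* (11.8), *Has2* (7.70), *Itih5* (5.48) and *Itih2* (5.33), then *Hyal1* (1.201), *Has3* (0.732), *Tnfaip6* (0.437), *Has1* (0.0667) and *Itih4* (0.0188). *Cd44* at its lowest, 26.4 FPKM, was still above *Hyal2* at its highest, 22.9. The levels of all other neighbours in both orders overlapped between tumors, so their order is not firm. In R-21 the level of *Itih2*, 62.6 FPKM, was above that of *Cd44*, 26.4 FPKM.

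The rest of the pathway held no gene called by edgeR. Of 37 other hyaluronan genes listed, 24 passed the filter, 13 with a log2 fold change above 0 and 11 below, with a median of 0.11. Among them 3 had an unadjusted p under 0.05 by edgeR, beside 20.5% of all tested genes, and DESeq2 called 2, *Acan* and *Itih5l-ps*, beside 6.24% of all tested genes. In the heavy chain family, *Itih5l-ps*, a pseudogene, ran from 0.0833 to 6.21 CPM in controls and from 0 to 48.1 in R-18 in RhoC tumors. Its log2 fold change was 3.09 (adjusted p = 0.164 by edgeR and 0.0357 by DESeq2, SE 1.19). It had 28.0 CPM in R-21 and 14.9 in R-2 but 0 in R-6 and R-13.

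Among the link proteins and proteoglycans, 5 of 9 were tested. *Acan* encodes aggrecan, the hyaluronan-binding proteoglycan of cartilage. It ran from 0 to 0.609 CPM in controls, and RhoC tumors ran from 0 through a median of 0.498 to 43.3 in R-21. R-15 with 39.5 CPM and R-12 with 29.5 were the other high tumors. The log2 fold change was 5.93 (adjusted p = 0.0826 by edgeR and 0.0191 by DESeq2, SE 1.65). The 4 chondrocyte markers, of which *Acan* is one, were all tested and none was called by edgeR. *Acan* and *Col2a1* had an unadjusted p under 0.05 and were called by DESeq2, against 20.5% and 6.24% of all tested genes. The 4 summed to 24.4 to 431 CPM in controls and 3.05 to 1756 in RhoC tumors, highest in R-7, where *Acan* was 1.73 CPM. *Ptx3*, which helps to crosslink heavy chain-bound hyaluronan, had a log2 fold change of -1.01 (edgeR adjusted p = 0.429).

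Of 5 receptors and clearance genes, 4 were tested. *Lyve1*, the lymphatic receptor, had a log2 fold change of -0.99 (edgeR adjusted p = 0.551) and *Stab1*, a scavenger receptor of macrophages, 0.74 (adjusted p = 0.269). Of 10 other depolymerases and exoglycosidases, 6 were tested. *Cemip*, which depolymerises hyaluronan, had -0.44 (adjusted p = 0.690) and *Hexa*, a lysosomal subunit that trims its fragments, 0.32 (adjusted p = 0.555). All 7 enzymes that make the sugar precursors were tested. *Gfpt2* and *Gfpt1*, which catalyse the first step towards the amino sugar, had 1.08 (adjusted p = 0.138, SE 0.39) and 0.39 (adjusted p = 0.283). *Gfpt2* ran from 4.70 CPM through a median of 13.3 to 31.9 in controls and from 15.7 through 29.1 to 69.0 in RhoC tumors, highest in R-6.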

How the data were processed

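RNA of 21 mammary tumors was sequenced from ribosomal RNA-depleted, stranded total RNA libraries. Per the labels and the study's methods, the authors trimmed reads with Trim Galore 0.5.0, aligned them to GRCm38.p6 with STAR 2.6.0c and made the deposited counts per gene with HTSeq 0.6.1p2, which kept uniquely mapping reads on 1 gene. The strand setting was not stated. The authors' FPKM, scaled per length and depth, were used to compare levels between genes. Deposited tables also hold the authors' comparisons of the cohorts, which were not used.

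Counts were scaled by TMM. The cohorts were compared with the edgeR 4.0.16 quasi-likelihood test in R 4.3.3, without covariates, on 19315 genes that passed filterByExpr by cohort, with Benjamini-Hochberg adjustment over all of them and calls at 0.05. The SE is the log2 fold change over the square root of F. On simulated counts with 200 of 19031 genes changed by 3 log2 units, this test recovered 91.5% and called 8 unchanged genes, and DESeq2 recovered 96% and called 46 unchanged genes. The simulated tumors were drawn independently, without shared mice, so these rates need not hold for the real tumors. DESeq2 1.42.0, other scalings, filters and sets of tumors, and fits without single tumors were alternatives. Log2 CPM used a prior count of 2. Tumors of 1 mouse entered the fit as separate samples. Limits for 0 reads cover counting error only.

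The 10 genes and the lists were chosen with earlier results of these data known. Named were all 10 genes, in each pathway list the 2 tested genes with the largest log2 fold change in either direction and mean log2 CPM over 0, the 10 genes most like *Itih2*, all genes within 250 kb of it, *Rhoc* and *Erbb2*. *Fgb*, *Alb* and the other genes named beside them were added after their values were seen. RefSeq promoter windows matched 8 of the 10 genes.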

Additional observations from a re-analysis of the deposited data

Results flagged for a closer look

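Among the 9 control tumors, N-17 stood apart for *Itih5*, at 198 CPM against 50.0 in the next highest control. Its gap to that tumor was 0.507 of the range of the 9 controls on the log2 scale, above the 95% limit of the Dixon test. N-17 also had the highest *Itih4*, *Itih2* and *Hyal1* of the controls, at 2.59, 2.50 and 19.7 CPM, none of which passed the limit, and the highest adipocyte and skeletal muscle sums. Chance flags about 1 in 20 groups, and the highest and lowest controls of all 10 genes were looked at. The next largest ratio was 0.487, for N-4 as the lowest control of *Hyal2*, and was not flagged. The RhoC tumors were not put to this test.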

How the results depend on the processing

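For the 8 hyaluronan genes tested between the cohorts, 68 of 79 log2 fold changes with an adjusted p over 10 alternatives kept their direction and their side of the threshold. None of the 8 was called in the main fit, so a kept side means only that a gene stayed uncalled. The tally does not weigh size and is not read as stability. *Cd44*, at 0.49 in the main fit, counts as kept at 0.0064 without the 4 tumors of P497. It also counts as kept at 0.00096 with shared tumor numbers as a block. *Itih2*, given without a test, was above 0 in all 10 alternatives, from 4.86 to 5.54, and from 4.12 to 5.28 without single tumors. DESeq2 with its own size factors called *Itih4* (-2.23) and *Has3* (3.28), and DESeq2 without replacement of outlying counts, chosen after seeing the data, called *Itih4* (-2.23) and gave *Has3* no adjusted p. With counts summed per mouse, *Hyal1* turned to -0.036 and *Cd44* to -0.020. Without the squamous cell carcinomas, *Has2* turned to -0.14, *Hyal1* to -1.10 and *Cd44* to -0.46. Without the 4 tumors of P497, *Has2* turned to -0.025. None of these turned values was called, and the cause was not tested.

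Without single tumors, values ran from -2.44 to -1.45 for *Itih4*, from -0.14 to 0.84 for *Itih5*, from 0.03 to 0.92 for *Has2*, from 0.52 to 3.40 for *Has3*, from -0.24 to 0.67 for *Hyal1*, from 0.30 to 0.55 for *Hyal2*, from 0.17 to 0.73 for *Cd44* and from -1.24 to -0.29 for *Tnfaip6*. *Itih5* turned below 0 without N-9, N-15, R-1 or R-16. None of these 8 genes was called by edgeR in a fit without a single tumor.

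The count of called genes over the whole table, 43, was unstable. It was 1206 with DESeq2, 1093 with DESeq2 without replacement, 27 with library size scaling, 3 with counts summed per mouse, 438 with the Gata4 loxP controls alone, 3 without P497, 26 without the squamous cell carcinomas and 19 without N-1. Without single tumors it ran from 14 (without N-9) to 346 (without N-15) and was within 1.5 times the count in 6 of 21 fits. The shares of genes called that stand beside the members move with it.

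The tumor numbers 1, 6, 7 and 15 occur in both cohorts, but same-numbered tumors did not deviate together, with correlations from -0.24 to 0.02. With these numbers as a replicate block over 8 tumors, 0 genes were called by edgeR, as without the block on the same 8 tumors, and 1346 had an unadjusted p under 0.05. With this block *Has2* turned to -0.21 and *Hyal1* to -1.03. Depth limits *Itih4*, *Has1* and the control levels of *Itih2*, which rest on few reads.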
